A study of Rattus norvegicus with 4 samples.

Results

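The metabotropic glutamate receptors described here are 7 genes (Grm2, Grm3, Grm4, Grm5, Grm6, Grm7 and Grm8) of the 32883 genes counted in nuclei of the rat ventral tegmental area (VTA), a midbrain region that holds dopamine neurons among GABA and glutamate neurons and glia. The genes were taken by symbol, and each was found once. They were described across groups of nuclei that were set apart by raw UMI counts of other genes (a UMI, or unique molecular identifier, marks a captured RNA molecule). Dopamine nuclei had at least 2 UMIs of Th, which makes the dopamine precursor, and at least 2 of Slc6a3, the dopamine transporter. A further neuron group held Slc26a7 together with Gad2, a GABA-synthesising enzyme. GABA nuclei had at least 2 UMIs of Gad1, the other such enzyme. Glutamate nuclei had at least 2 UMIs of Slc17a6, a vesicular glutamate transporter, and none of Gad1, and were divided by Sim1 and Foxb1, transcription factor genes of neighbouring hypothalamic regions. Oligodendrocytes were taken by Mog and Mobp, oligodendrocyte precursors by Pdgfra, astrocytes by Gja1 and Aqp4, and microglia by Csf1r and C1qa. None of the 7 receptors was used to form a group.

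The samples were 4 libraries, 2 female and 2 male. Each combined VTA tissue of 3 Sprague-Dawley rats of the same sex, 90 to 120 days old, with no genetic change and no treatment. Nuclei were isolated from frozen tissue, stained with a DNA dye, sorted and profiled with droplet 3' RNA sequencing. The library is the replicate. Tests between groups of nuclei compare the groups within each library. Their p-values measure how such differences vary between the 4 libraries, pooled over the groups fitted together. The p-values of female against male libraries measure the spread between pools of animals.

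Metabotropic glutamate receptors are G protein-coupled receptors that respond to the transmitter glutamate over a slower time course than glutamate-gated channels. Group I receptors, here Grm5, act through Gq, phospholipase C and calcium release and lie mostly beside synapses on dendrites and on glia. Group II receptors (Grm2 and Grm3) and group III receptors (Grm4, Grm6, Grm7 and Grm8) act through Gi and Go, lower cyclic AMP and often reduce transmitter release, and in the VTA such receptors modulate input to dopamine neurons.

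The libraries held 19714338 to 25824289 UMIs each, and 20620 nuclei were kept, with library medians of 2381 to 3861 UMIs. Only 36 cell barcodes were shared by 2 libraries and 0 by more. The groups took in 15510 nuclei (75.2%), and each nucleus was counted once. There were 304 dopamine nuclei (69 to 85 per library), 166 Slc26a7/Gad2 nuclei (31 to 46), 1086 GABA nuclei and 1170 glutamate nuclei without Sim1 and Foxb1. Glia were 8464 oligodendrocytes, 1535 precursors, 1835 astrocytes and 920 microglia. Only 30 nuclei had both Sim1 and Foxb1, with 0 in female 2, so the tested glutamate group with these genes had at least 1 UMI of either (319 nuclei, 25 to 109 per library). Median depth was 6280 to 11007 UMIs in the neuron groups of over 100 nuclei, 1926.5 to 3911 in oligodendrocytes, precursors and astrocytes, and 1221.5 to 1543 in microglia. Marker lists followed the names. A list of 6 dopamine markers summed to 2415 to 2910 CPM (UMIs per 1000000 UMIs of that group in that library) in dopamine nuclei and 80.4 to 104 in GABA nuclei. Slc26a7/Gad2 nuclei held 754 to 1049 CPM of the dopamine list, 1041 to 1400 of a GABA list and 126 to 213 of a glutamate list. The GABA list includes Gad2, which forms this group, so that sum is no separate support for its name. These sums pool unlike nuclei. The 33 with a Gad1 UMI held 38.2 to 601 CPM of the dopamine list and 0 to 90.1 of the glutamate list. The 133 without held 979 to 1209 and 157 to 255 CPM. The precursor list summed to 6877 to 8349 CPM in precursors and also to 2341 to 2395 in astrocytes. An astrocyte list summed to 8533 to 9078 CPM in astrocytes and also to 1158 to 1973 in microglia.

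Each of the 5 receptors with more than 100 UMIs had its own distribution over these groups. Grm3 was concentrated in oligodendrocytes, Grm8 peaked in Slc26a7/Gad2 neurons, and Grm2 was highest in glutamate neurons. Grm5 and Grm7 were both high in GABA and glutamate neurons and in oligodendrocyte precursors and lower in dopamine neurons. Grm6 had 65 UMIs in all and Grm4 had 0. Since 3' UMI counts are not scaled by gene length or capture, levels are compared between groups of nuclei for each gene and not between genes.

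**Figure D1:**
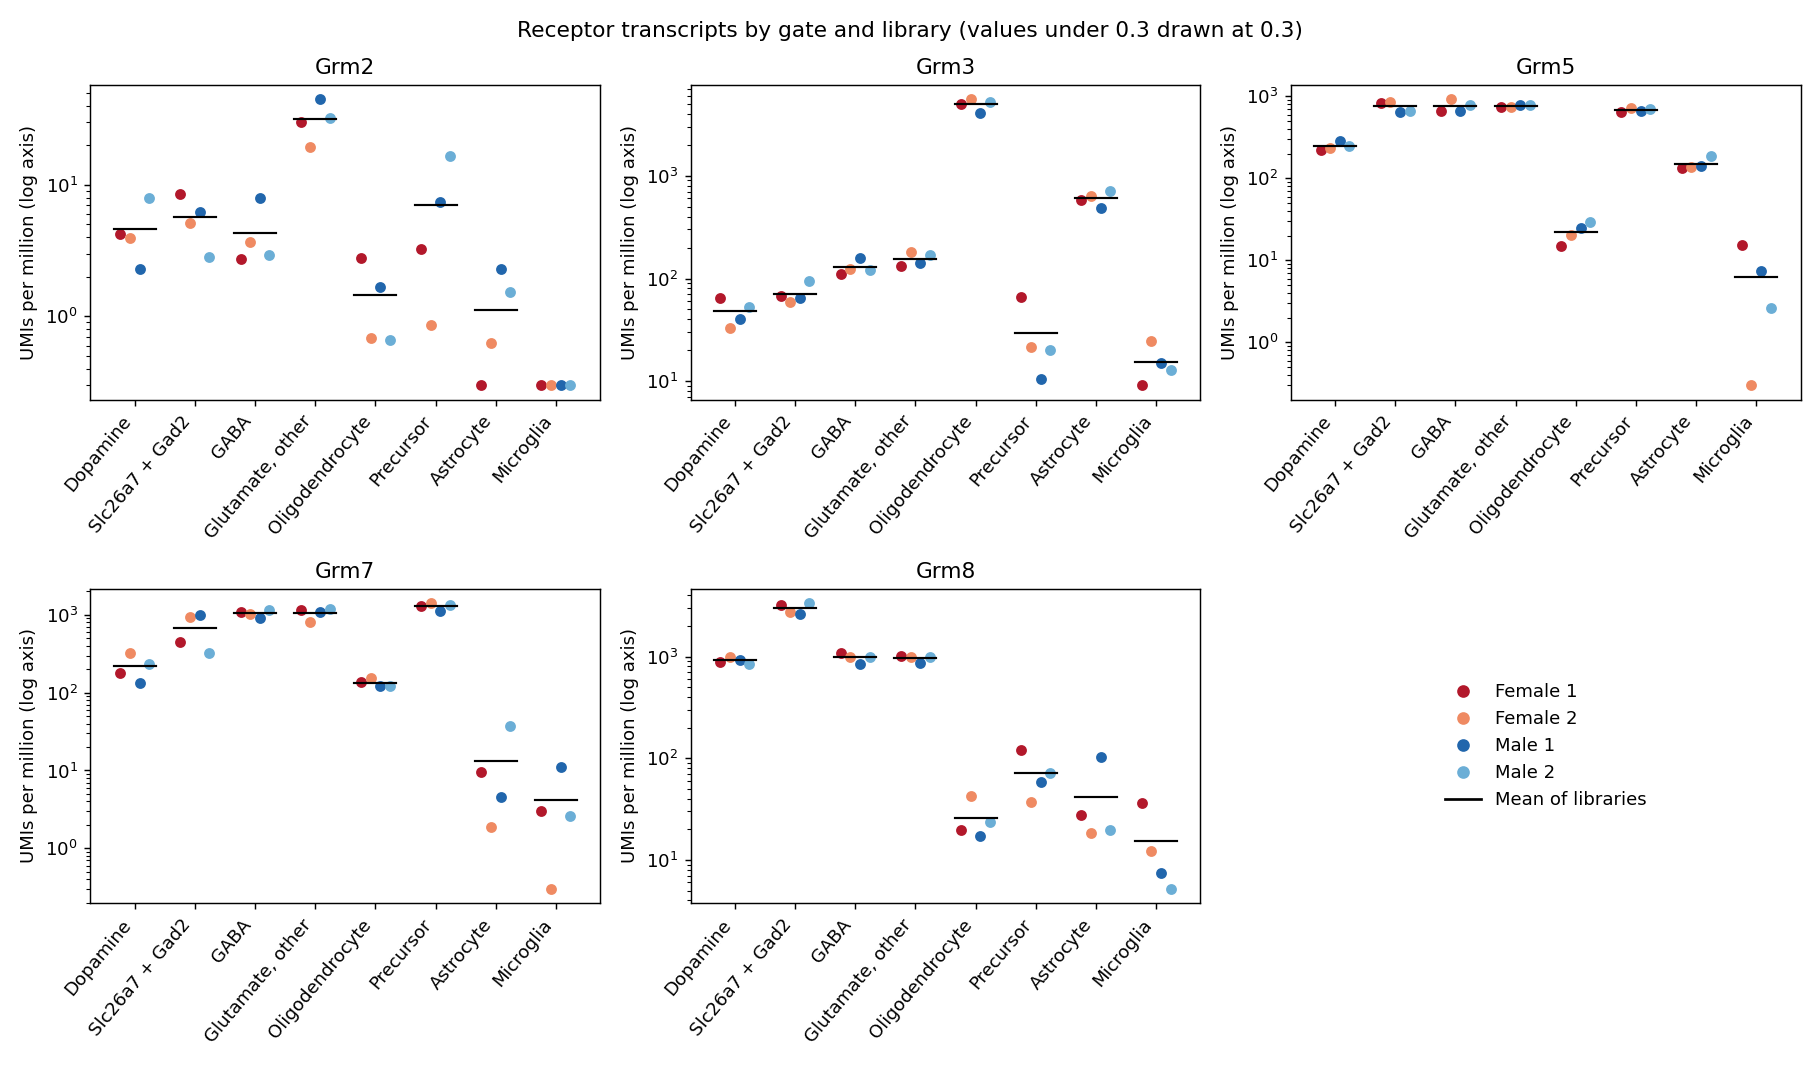
Level of Grm2, Grm3, Grm5, Grm7 and Grm8 (CPM, log axis; values under 0.3 are drawn at 0.3) in each group of nuclei, with a point per library and a line at the mean of 4 libraries. "Glutamate, other" stands for glutamate nuclei without Sim1 and Foxb1, and Grm4 and Grm6 are not drawn. Grm3 is at 4089 to 5539 CPM in oligodendrocytes, Grm8 at 2639 to 3359 CPM in Slc26a7/Gad2 nuclei, and Grm2 at 19.2 to 44.6 CPM in glutamate nuclei.

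Differences between groups of nuclei were tested on UMI sums per group and library with edgeR's quasi-likelihood test, with the library as a block and Benjamini-Hochberg adjustment over all genes tested. Of the 7 receptors, 5 passed the filter on low counts among neurons, where Grm2 passed through its level in glutamate nuclei, and 4 passed among glia, so the counts of receptors that follow are a description. Between dopamine and GABA nuclei 3 of 5 receptors were called, where 32.4% of all genes tested were. Between dopamine and glutamate nuclei 4 of 5 were called (26.2% of all genes), Grm2 among them, and between GABA and glutamate nuclei 1 of 5 (13.2% of all genes), which was Grm2. Slc26a7/Gad2 against dopamine nuclei gave 3 of 5 (18.4% of all genes), and glutamate nuclei with against without Sim1 or Foxb1 gave 4 of 5 (9.16% of all genes). These contrasts share groups, so their results are given side by side.

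The glia contrasts called most genes, so a call there says little about a receptor beyond its size and direction. All 4 tested receptors differed between precursors and oligodendrocytes (63.6% of all genes were called) and between astrocytes and precursors (54.9% of all genes). Between astrocytes and oligodendrocytes 3 of 4 were called (66.7% of all genes), and between microglia and oligodendrocytes 3 of 4 (57.2% of all genes). In neurons against glia, taken as the mean of dopamine, GABA and glutamate nuclei minus the mean of oligodendrocytes, precursors and astrocytes, all 5 tested receptors were called, where 75.2% of all genes were. In that contrast Grm8 was higher in neurons by 4.30 ± 0.13 (log2 fold change ± SE), Grm7 by 1.84, Grm5 by 1.72 and Grm2 by 1.65, and Grm3 was lower (log2 fold change -2.45). With gating genes at 1 UMI more Grm8 was at 5.10, Grm7 at 2.61 and Grm2 at 2.94, and with nuclei counted in every group they passed Grm8 was at 3.50. Among these neurons Grm2 was high only in glutamate nuclei (mean 31.5 CPM), through which it passed the filter on low counts here. Its means in dopamine (4.61 CPM) and GABA nuclei (4.30 CPM) lay below that of precursors (6.98 CPM), where male 2 gave 23 of 35 UMIs. They lay above those of oligodendrocytes (1.46 CPM) and astrocytes (1.11 CPM). Under the rule as given, Grm2 was thus not higher in every neuron group than in every glia group. With gating genes at 1 UMI more, the precursor mean was 0.974 CPM from 4 UMIs. It then lay below dopamine (3.87 CPM) and GABA nuclei (4.80 CPM). Precursors with Cspg4 and without Bmp4 and Gpr17 held 0.737 CPM from 2 UMIs.

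Grm5 (ENSRNOG00000016429), the group I receptor, was read from 34750 UMIs. It was at 221, 234, 284 and 252 CPM in dopamine nuclei of female 1, female 2, male 1 and male 2. It was at 655, 924, 672 and 793 CPM in GABA nuclei and at 739.9, 739, 778 and 788 CPM in glutamate nuclei, in the same order. Every dopamine value lay below every GABA and glutamate value. The difference was -1.54 ± 0.11 (log2 fold change ± SE, edgeR adjusted p = 9.05e-13) against GABA nuclei and -1.54 ± 0.11 (adjusted p = 1.13e-12) against glutamate nuclei. GABA and glutamate nuclei differed by less than the spread (log2 fold change -0.00047 ± 0.09, adjusted p = 0.999).

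Slc26a7/Gad2 nuclei, which carry part of the dopamine programme, had Grm5 at 840.3, 858, 653 and 672 CPM, a range that overlaps that of the GABA nuclei and lies above every dopamine value. Against dopamine nuclei the log2 fold change was 1.57 ± 0.12 (edgeR adjusted p = 1.61e-11). Within dopamine nuclei, the 121 nuclei with a UMI of Aldh1a1, a marker of a ventral dopamine subtype, had Grm5 at 255 to 350.2 CPM and the other 183 had 146 to 260.1 CPM, ranges that overlap. The 117 GABA nuclei with Lum had 692 to 1052 CPM, and the 227 with Gata3, a midbrain GABA transcription factor, had 838 to 1058 CPM. The 307 glutamate nuclei with Lmx1a, a transcription factor shared with dopamine neurons, and without Th, Slc6a3 or C1ql1 had 810.2 to 1046 CPM. Those with C1ql1 and without Th had 543 to 645 CPM. These smaller sets were not tested.

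Among glia Grm5 was a precursor gene first and an astrocyte gene second. Precursors held 646, 713, 660.3 and 697 CPM of Grm5, a range that overlaps those of GABA and Slc26a7/Gad2 nuclei. Astrocytes held 134, 139, 142 and 189 CPM, oligodendrocytes 15.1, 20.3, 24.5 and 29.6 CPM, and the 4 microglia sums only 8 UMIs together. The precursor, astrocyte and oligodendrocyte values did not overlap. Precursors exceeded oligodendrocytes by 4.79 ± 0.13 (log2 fold change ± SE, edgeR adjusted p = 1.70e-27), and astrocytes exceeded oligodendrocytes by 2.74 ± 0.13 and fell short of precursors (log2 fold change -2.05 ± 0.11). With nuclei counted in every group they passed, the differences of precursors and of astrocytes from oligodendrocytes became 3.86 and 1.85. Neuron markers, a list of 4 genes, summed to 941 to 1791 CPM in precursors and 143 to 164 CPM in oligodendrocytes, and their part in the Grm5 difference was not tested. In the 901 precursors with Cspg4 and without Bmp4 and Gpr17, Grm5 was at 684 to 737 CPM, with neuron markers at 818 to 947 CPM.

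Grm3 (ENSRNOG00000005519), a group II receptor found on glia as well as on nerve endings, had the most UMIs of the 7 genes, 139843. Oligodendrocytes held 5003, 5539, 4089 and 5223 CPM of Grm3 in female 1, female 2, male 1 and male 2. They carried 81.0% to 87.2% of each library's Grm3 UMIs. Astrocytes followed with 579, 639, 489.6 and 706 CPM, below every oligodendrocyte value and above every neuron value. The astrocyte difference from oligodendrocytes was -3.07 ± 0.15 (log2 fold change ± SE, edgeR adjusted p = 1.22e-19).

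Precursors of the oligodendrocyte lineage held little Grm3. Their values were 66.2, 21.5, 10.6 and 19.99 CPM, and in female 1 a single nucleus gave 33 of 82 UMIs (39.6 CPM without it). They were lower than oligodendrocytes by a log2 fold change of -7.52 ± 0.21 (edgeR adjusted p = 7.69e-27), and astrocytes exceeded precursors by 4.45 ± 0.21. Both calls held in 12 of 12 alternatives, but the values were -5.01 and 1.93 with nuclei counted in every group they passed and -8.31 and 5.26 without female 1. Microglia had 9.17, 24.7, 15.0 and 12.95 CPM, lower than oligodendrocytes by a log2 fold change of -8.45 ± 0.27 (in this contrast the median over all genes was -0.16), or -6.36 with doublet calls kept. In the Cspg4 precursors Grm3 was at 6.57 to 22.3 CPM.

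Oligodendrocyte RNA was present at a low level in all groups, and for a gene as abundant in oligodendrocytes as Grm3 that level matters. The Mobp level of each group, multiplied by the Grm3 to Mobp ratio of oligodendrocytes in the same library, gave the Grm3 level that oligodendrocyte RNA of that composition would carry. Mobp, a myelin protein gene, is itself a gating gene of oligodendrocytes, which favours nuclei with many Mobp UMIs there and so lowers that level. Measured Grm3 was 1.10 to 4.39 times that level in dopamine nuclei, 2.03 to 9.16 times in Slc26a7/Gad2 nuclei, 3.78 to 11.4 times in GABA nuclei and 5.23 to 9.37 times in glutamate nuclei. It was 10.2 to 18.3 times that level in astrocytes, 0.249 to 1.56 times in precursors and 0.382 to 1.33 times in microglia. Grm3 thus lay around that level in precursors and microglia and above it in every library in the other groups, by the least in dopamine nuclei of 1 library. These ratios were computed only for the groups under the rule as given.

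In neurons, Grm3 was at 65.2, 32.9, 40.3 and 53.0 CPM in dopamine nuclei, 111, 123, 159.7 and 120.2 CPM in GABA nuclei and 133, 179.8, 142 and 168 CPM in glutamate nuclei. Every dopamine value lay below every GABA and glutamate value, while the latter overlap. Dopamine nuclei were lower than GABA nuclei by a log2 fold change of -1.38 ± 0.17 (edgeR adjusted p = 8.37e-08) and than glutamate nuclei by -1.63 ± 0.16 (adjusted p = 2.95e-09). With nuclei counted in every group they passed, these became -0.54 and -0.68 and were still called. The Grm3 level that the Mobp ratio gave was 14.9 to 29.8 CPM in dopamine nuclei, 10.7 to 31.8 CPM in GABA nuclei and 18.1 to 25.4 CPM in glutamate nuclei, and the part of oligodendrocyte RNA in these differences was not tested. GABA against glutamate nuclei missed the threshold (-0.25 ± 0.11, adjusted p = 0.148), and so did Slc26a7/Gad2 against dopamine nuclei (0.55 ± 0.25, adjusted p = 0.131). The latter depended on the definition of the groups. Of 101 Grm3 UMIs in Slc26a7/Gad2 nuclei, 56 were in the 33 nuclei with Gad1. With gating genes at 1 UMI more, Slc26a7/Gad2 nuclei held 9.63 to 43.4 CPM and dopamine nuclei 29.2 to 72.1 CPM, and the difference turned negative. Within GABA nuclei, those with Gata3 had Grm3 at 237 to 308 CPM and those with Lum at 5.25 to 58.7 CPM, without a test.

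Within oligodendrocytes, Grm3 changed little and Grm7 changed much between nuclei with Opalin and nuclei with Hapln2 and Klk6. Opalin encodes an oligodendrocyte membrane protein, Hapln2 a protein of the matrix around nodes of Ranvier and Klk6 a protease of mature oligodendrocytes. The comparison took 496 nuclei with Opalin and without Klk6, Hapln2 and Cdh19, and 3894 with both Hapln2 and Klk6, and all 4 tested receptors were called where 21.9% of all genes were. Grm7 was at 371, 572, 676 and 524 CPM in the Opalin nuclei and at 19.5, 36.3, 28.6 and 17.1 CPM in the Hapln2 and Klk6 nuclei, with no overlap. This was a log2 fold change of 4.50 ± 0.13 (edgeR adjusted p = 1.67e-26). Without the nucleus richest in Grm7 of each library, the Opalin values were still 323 to 462 CPM.

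A Grm7 UMI was counted in 19.2% to 41.3% of the Opalin nuclei and in 2.85% to 4.23% of the Hapln2 and Klk6 nuclei, at median depths of 1855 to 3327.5 and 2204 to 3045.5 UMIs. Neuron markers summed to 97.8 to 406 CPM in the Opalin nuclei and 85.1 to 136 CPM in the others, and precursor markers to 88.9 to 143 and 70.1 to 80.1 CPM. Astrocyte markers summed to 91.9 to 118 CPM in the Opalin nuclei and 401 to 444 CPM in the others, with no overlap. The part of these markers in the receptor differences was not tested. Grm3 was at 5026, 5694, 4161 and 4375 CPM in Opalin nuclei and at 3652, 4343, 3377 and 4322 CPM in Hapln2 and Klk6 nuclei, higher in all 4 libraries by a log2 fold change of 0.39 ± 0.08 (edgeR adjusted p = 0.000102). Grm5 was lower in Opalin nuclei (-1.33 ± 0.33, adjusted p = 0.00217, from 16 UMIs there). Grm8 was called higher (1.51 ± 0.31, adjusted p = 0.000223), but 98 of its 112 UMIs in Opalin nuclei came from female 2 and 67 of those from a single nucleus. Without female 2 that difference was -0.25, and DESeq2 did not call it (0.50).

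**Figure D2:**
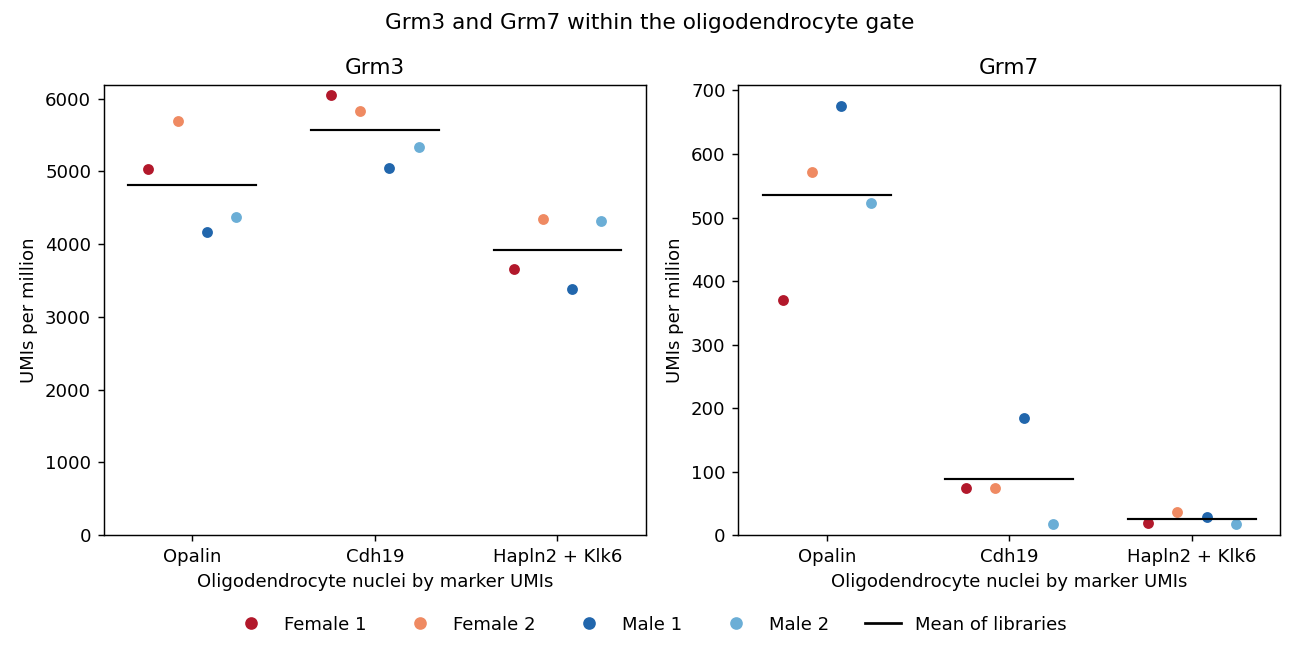
Levels of Grm3 and Grm7 (CPM) in oligodendrocytes with Opalin, with Cdh19, and with Hapln2 and Klk6, with a point per library and a line at their mean. Grm7 is at 371 to 676 CPM in Opalin nuclei against 17.1 to 36.3 CPM in Hapln2 and Klk6 nuclei, while Grm3 stays at 3377 CPM or more in every set and library.

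The 396 oligodendrocytes with Cdh19, an adhesion gene, and without Opalin and Klk6 had Grm3 at 5044 to 6053 CPM and Grm7 at 18.3 to 185 CPM. The Grm3 range overlaps that of the Opalin nuclei, and 61 Grm7 UMIs lie behind the second range. This set was not tested.

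Grm2 (ENSRNOG00000013171), the group II receptor known mainly from glutamate nerve endings, was sparse, with 1412 UMIs. Glutamate nuclei without Sim1 and Foxb1 held 29.9, 19.2, 44.6 and 32.3 CPM in female 1, female 2, male 1 and male 2. Dopamine nuclei held 4.25, 3.95, 2.30 and 7.95 CPM from 14 UMIs, and GABA nuclei 2.72, 3.65, 7.89 and 2.92 CPM from 41 UMIs. Each of these glutamate values lay above each value of the dopamine, GABA, Slc26a7/Gad2 and glia groups, where precursors of male 2 came nearest (16.4 CPM). The log2 fold change was -2.71 ± 0.32 (edgeR adjusted p = 6.28e-08) for dopamine against glutamate nuclei and -2.80 ± 0.22 (adjusted p = 8.38e-11) for GABA against glutamate nuclei. Grm2 entered the tests between groups through the glutamate nuclei, where it is high. None of its calls is therefore independent of that filter, and this includes those for neurons against glia and for Sim1 or Foxb1. With no filter on low counts the values against glutamate nuclei were -2.73 for dopamine and -2.81 for GABA nuclei and were called. The calls for neurons against glia and for Sim1 or Foxb1 held in 11 of 11 and 12 of 12 alternatives, no filter among them. Dopamine and GABA nuclei were not distinguished (0.08 ± 0.46, adjusted p = 0.916), and the SE shows how little these UMIs can resolve. In microglia 0 of 920 nuclei had a Grm2 UMI, which allows a share of up to 0.326% of nuclei.

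Glutamate nuclei with a UMI of Sim1 or Foxb1 held more Grm2 in 3 of 4 libraries. Their values were 90.3, 10.8, 124 and 82.4 CPM, and the second, female 2, rests on 3 UMIs in 25 nuclei and lay below the 19.2 CPM of the same library without these genes. The log2 fold change was 1.43 ± 0.18 (edgeR adjusted p = 1.89e-06) and 1.53 without female 2. Grm7 stood at 2902, 1069, 1999 and 2116 CPM with these genes and at 1167, 798, 1084 and 1201 CPM without, higher in each library, by a log2 fold change of 0.99 ± 0.25 (adjusted p = 0.00824). DESeq2 did not call it (0.99), nor did edgeR without female 1 (0.81).

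Grm3 was lower in the Sim1 or Foxb1 nuclei (47.8, 151, 63.5 and 57.4 CPM) by a log2 fold change of -1.16 ± 0.18 (edgeR adjusted p = 6.79e-05). Grm8 was higher by 0.38 ± 0.11 (adjusted p = 0.0225) and lost its call in 6 of 12 alternatives, among them the omission of female 1, of female 2 or of male 1. Grm5 was not distinguished (0.09 ± 0.10, adjusted p = 0.720). Female 2 stood apart from the other libraries in Grm2, Grm3 and Grm7 of these nuclei. The 30 nuclei with both genes, found in 3 libraries, had Grm2 at 119.6, 261 and 121 CPM and Grm7 at 3730.1, 3024 and 2117 CPM.

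Grm7 (ENSRNOG00000005662), a group III receptor that sits in the active zone of nerve endings and needs high glutamate to respond, had 59105 UMIs. It was at 179, 320.1, 135 and 235 CPM in dopamine nuclei and at 1099, 1028, 908 and 1165 CPM in GABA nuclei. Each dopamine value was below each GABA value and below each glutamate value (798 to 1201 CPM). The log2 fold changes were -2.22 ± 0.23 (edgeR adjusted p = 3.33e-09) against GABA nuclei and -2.24 ± 0.23 (adjusted p = 3.89e-09) against glutamate nuclei. GABA and glutamate nuclei were not distinguished (-0.02 ± 0.19, adjusted p = 0.976). Grm5 and Grm7 were thus both lower in dopamine nuclei than in GABA and glutamate nuclei.

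Subsets within the neuron groups spanned a wide range of Grm7, though none was tested. GABA nuclei with Lum held 419.8 to 459.5 CPM of Grm7, while those with Gata3 held 779 to 1320.5 CPM and those with Meis2 but neither of these genes 1137 to 1379 CPM. Glutamate nuclei with C1ql1 and Th and without Slc6a3, a set of 115 nuclei, held 166 to 504 CPM, and those with C1ql1 and without Th 629 to 993 CPM. In both cases the ranges do not overlap.

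In glia Grm7 was a precursor gene. Precursors held 1299.7, 1419.8, 1121 and 1338 CPM, a range that overlaps that of glutamate nuclei, and oligodendrocytes 138, 154, 121 and 121 CPM. Precursors exceeded oligodendrocytes by 3.13 ± 0.17 (log2 fold change ± SE, edgeR adjusted p = 3.51e-18). Astrocytes held 9.47, 1.89, 4.59 and 37.7 CPM, and in male 2 a single nucleus gave 79 of 99 UMIs. They were lower than oligodendrocytes by a log2 fold change of -3.02 ± 0.26 (adjusted p = 1.05e-12) and than precursors by -6.15 ± 0.24. Without male 2 these values were -4.70 and -7.79, with gating genes at 1 UMI more -5.27 and -8.30, and with doublet calls kept -2.36 and -5.33. Microglia had 5 UMIs in 920 nuclei. The Cspg4 precursors held 1097 to 1518 CPM of Grm7.

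Slc26a7/Gad2 nuclei were the group in which Grm7 depended on the definition. With at least 1 UMI of each gene they held 443, 935, 998 and 323 CPM, above each dopamine value, by a log2 fold change of 1.61 ± 0.25 (edgeR adjusted p = 1.38e-05). With each gating gene at 1 UMI more, 93 Slc26a7/Gad2 and 238 dopamine nuclei remained. Grm7 was then at 111, 203, 46.5 and 124 CPM in the former and at 163, 317, 144 and 243 CPM in the latter, lower in each library. The log2 fold change turned to -0.85 ± 0.27 (adjusted p = 0.0218), the only one of 13 alternatives to turn it (adjusted p from 1.04e-60 to 0.0218 over all of them).

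**Figure D3:**
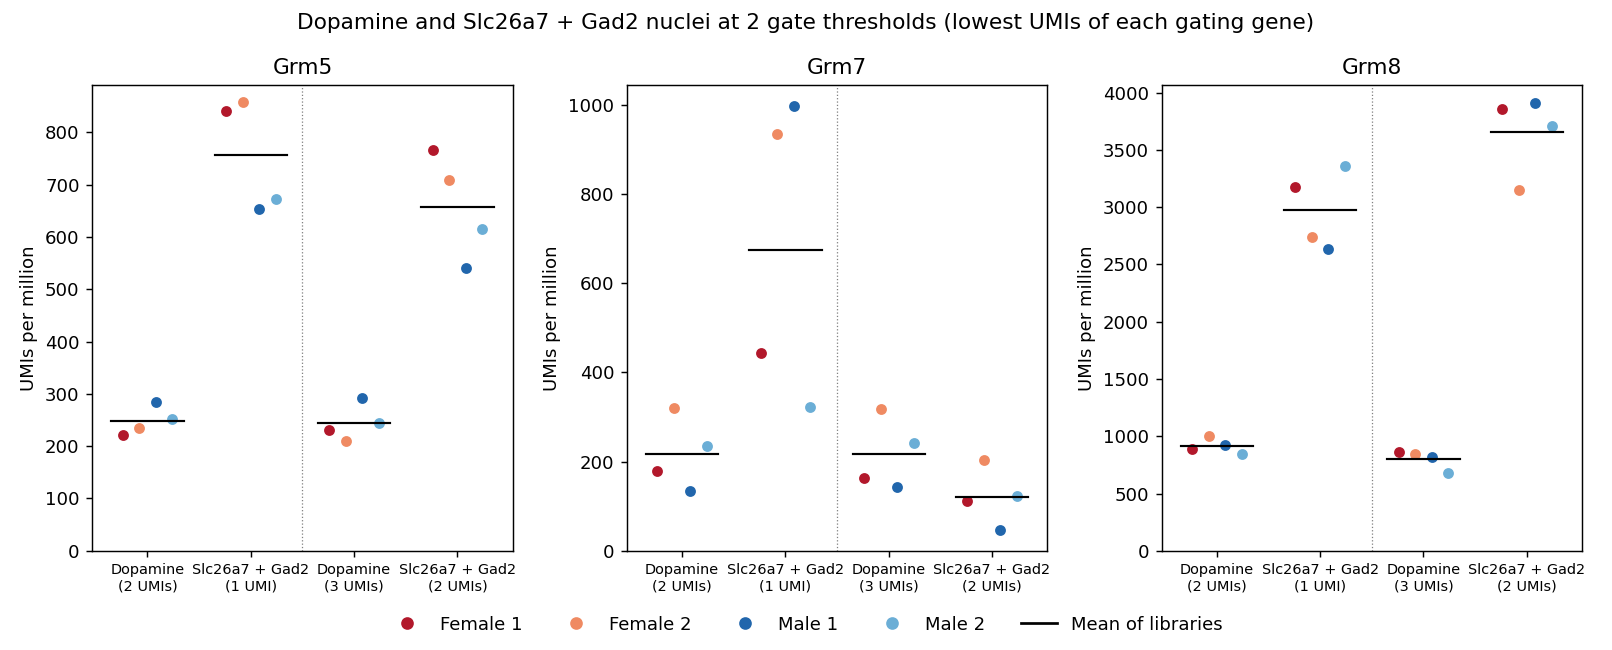
Levels of Grm5, Grm7 and Grm8 (CPM) in dopamine and Slc26a7/Gad2 nuclei under the rule as given (left of the dotted line) and with each gating gene at 1 UMI more (right), with a point per library and a line at their mean. Grm7 in Slc26a7/Gad2 nuclei moves from 323 to 998 CPM down to 46.5 to 203 CPM, while Grm8 stays at 2639 CPM or more.

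The Grm7 UMIs of these nuclei were unevenly spread, and in each library a single nucleus gave a large part (87 of 365 UMIs in female 2 and 40 of 114 in male 2). The 33 Slc26a7/Gad2 nuclei with a Gad1 UMI held 721 to 1744 CPM, and the 133 without held 123 to 953 CPM. Dopamine markers summed to 38.2 to 601 CPM in the former, 979 to 1209 CPM in the latter and 1173 to 1364 CPM in the 83 nuclei with at least 2 UMIs of both Slc26a7 and Gad2, where Grm7 was at 60.3 to 196 CPM. The 25 nuclei with an Slc6a3 UMI and without Gad1 had dopamine markers at 1554 to 2067 CPM and Grm7 at 42.8 to 152 CPM in 3 libraries and 1104 CPM in male 1, where 25 of 27 UMIs were in a single nucleus. The part of cell composition in the change of sign was not tested. Grm5 did not move in this way and was at 541 to 766 CPM in Slc26a7/Gad2 nuclei at the higher threshold against 209 to 292 CPM in dopamine nuclei.

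Grm8 (ENSRNOG00000021468), a group III receptor with high affinity for glutamate, had 47626 UMIs, and its highest level was in Slc26a7/Gad2 nuclei. These held 3179, 2739, 2639 and 3359 CPM in female 1, female 2, male 1 and male 2. Dopamine nuclei held 891, 999.9, 924 and 847 CPM. Each Slc26a7/Gad2 value was above each value of all other groups. The log2 fold change against dopamine nuclei was 1.66 ± 0.08 (edgeR adjusted p = 2.97e-15), and it was 1.57 to 2.15 over 13 alternatives. At the higher threshold the values were 3853, 3146, 3906 and 3705 CPM, against 682 to 859 CPM in dopamine nuclei. In the Slc26a7/Gad2 nuclei without Gad1 the range was 3063 to 3574 CPM, and in those with Gad1 804 to 3664 CPM.

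Unlike Grm5, Grm3 and Grm7, Grm8 did not separate dopamine nuclei from GABA and glutamate nuclei. GABA nuclei held 1094, 996, 851 and 986 CPM and glutamate nuclei 1002, 997, 868 and 986 CPM, ranges that overlap that of dopamine nuclei. The log2 fold change was -0.03 ± 0.08 (edgeR adjusted p = 0.840) for dopamine against GABA nuclei, 0.01 ± 0.08 (adjusted p = 0.945) for dopamine against glutamate nuclei and 0.04 ± 0.07 (adjusted p = 0.825) for GABA against glutamate nuclei. With gating genes at 1 UMI more the first became -0.27 and was called, and with nuclei counted in every group they passed the second became -0.22 and was called.

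Among dopamine nuclei the Grm8 level varied with Aldh1a1. Those with Aldh1a1 held 693, 831, 535 and 445 CPM of Grm8 and those without 1021, 1128, 1244 and 1098 CPM, with no overlap but without a test. Dopamine nuclei with a UMI of Slc17a6, a set of 54 with as few as 10 in a library, held 949 to 1936 CPM. The other 250 held 790.2 to 869 CPM. Without the nucleus richest in Grm8 of each library these were 772 to 1351 CPM and 744 to 811 CPM, ranges that overlap. GABA nuclei with Lum held 202 to 518 CPM, and those with Gata3 held 896 to 1341 CPM. Glutamate nuclei with C1ql1 and Th held 176 to 569 CPM, and those with C1ql1 and without Th held 905 to 1693 CPM.

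In glia Grm8 was low. Precursors held 119, 37.0, 58.3 and 72.1 CPM, oligodendrocytes 19.6, 42.1, 17.2 and 23.4 CPM, and astrocytes 27.8, 18.3, 102 and 19.8 CPM, where 72 of 89 UMIs of male 1 were in a single nucleus. These ranges overlap. Precursors were called higher than oligodendrocytes (log2 fold change 1.31 ± 0.32, edgeR adjusted p = 0.000459), but DESeq2 did not call it (1.23), and with gating genes at 1 UMI more it was 0.10 and not called. Without female 1 it was 0.83 and without female 2 1.92. Astrocytes against precursors (-0.95 ± 0.36, adjusted p = 0.0237) lost the call in 5 of 12 alternatives, among them those without female 1 (-0.48) and without male 2 (-0.68), and was -1.67 without male 1 and -2.26 with nuclei counted in every group they passed. Astrocytes against oligodendrocytes were not distinguished (0.36 ± 0.34, adjusted p = 0.356), although without female 2 the difference was called (0.99). Microglia against oligodendrocytes were not distinguished either (-0.94 ± 0.70, adjusted p = 0.266).

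**Figure D4:**
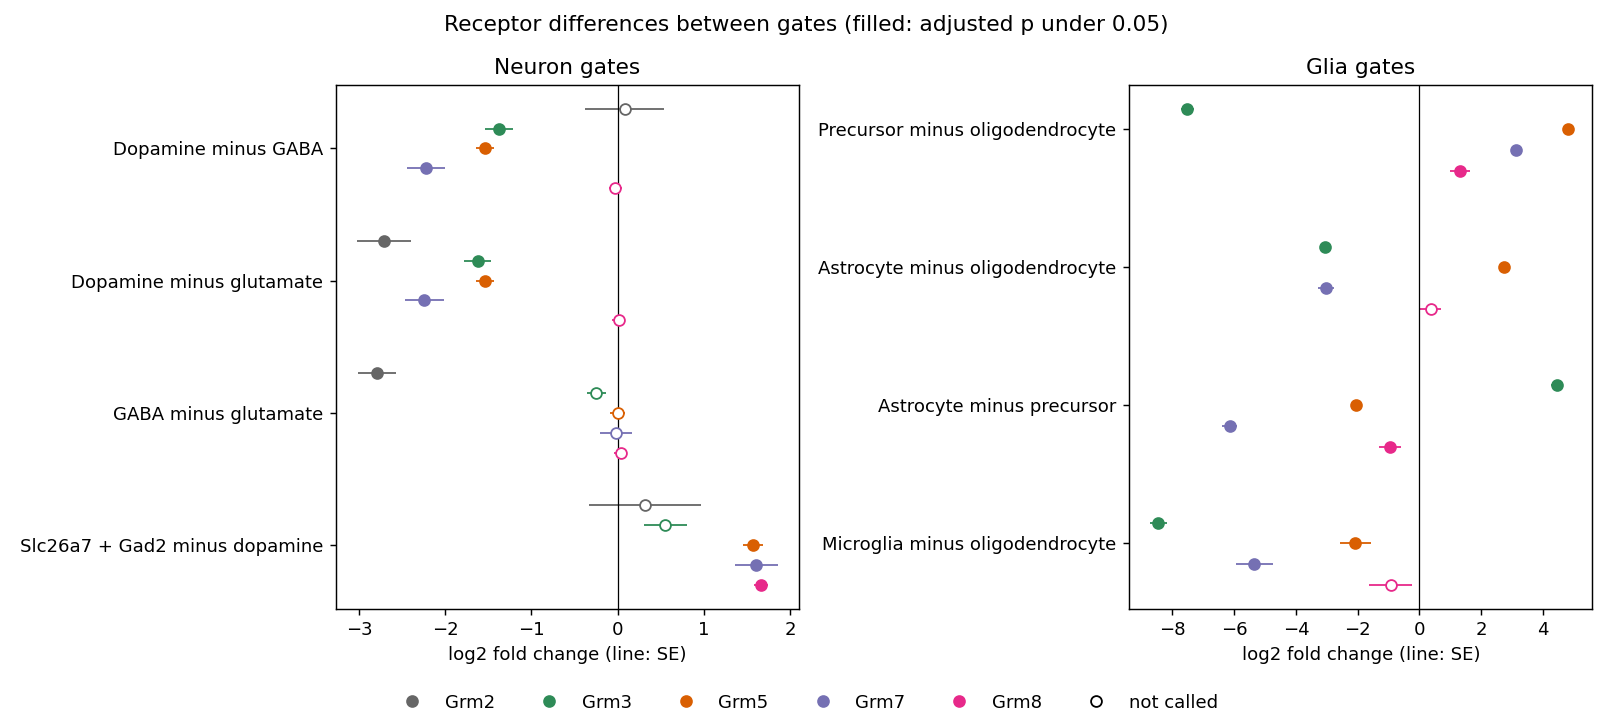
Log2 fold changes of the tested receptors (points, filled where the adjusted p passed 0.05, with lines of 1 SE) in the contrasts between neuron groups and between glia groups, from edgeR's quasi-likelihood test. Grm5 lies at -1.54 and Grm7 at -2.22 and -2.24 for dopamine against GABA and glutamate nuclei, where Grm8 lies within 0.03 of 0.

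The remaining group III receptors gave no distribution. Grm6 (ENSRNOG00000000233), the receptor of retinal ON bipolar cells, had 65 UMIs in 64 nuclei. The largest part, 23 UMIs, lay in nuclei that passed no rule. There were 13 UMIs in GABA nuclei, 12 in glutamate nuclei, 8 in precursors, 1 in oligodendrocytes and 0 in astrocytes and microglia. The highest group mean was 1.61 CPM, in precursors, and its range overlapped that of GABA nuclei. Grm4 (ENSRNOG00000000487), a receptor known from cerebellar granule cells, had 0 UMIs in 20620 nuclei, which allows a share of up to 0.0145% of nuclei with a UMI. Such limits cover counting error only.

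Because neuron nuclei were deeper than glia, the shares of nuclei with a UMI were also computed after thinning each nucleus to 2000 UMIs. Microglia were taken as background on the assumption that they lack most of these receptors, which was not tested. Of 920 microglia 175 were deep enough, and of 8464 oligodendrocytes 5416. Grm3 was then counted in 91.3% ± 1.73 (SD, n = 4) of oligodendrocytes, 56.5% ± 7.06 of astrocytes, 20.8% of glutamate nuclei, 13.2% of GABA nuclei, 8.14% of dopamine nuclei and 2.22% of microglia. Grm8 was counted in 86.3% ± 5.22 of Slc26a7/Gad2 nuclei, 60.9% ± 2.86 of dopamine nuclei, 53.9% of GABA nuclei, 49.6% of glutamate nuclei, 6.42% of precursors and 3.26% of microglia. The Grm8 shares put dopamine above GABA nuclei and the mean CPM does not, so no order of these groups is read from the shares.

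Grm5 was counted in 64.9% of glutamate nuclei, 63.3% of Slc26a7/Gad2 nuclei, 62.8% of GABA nuclei and 62.1% of precursors, in 30.4% ± 6.02 of dopamine nuclei, 15.7% of astrocytes and 1.54% of microglia. Grm7 was counted in 84.0% ± 2.05 of precursors, 66.6% of glutamate nuclei, 64.3% of GABA nuclei, 25.5% ± 4.28 of dopamine nuclei, 8.84% of oligodendrocytes and 0% of microglia. In Slc26a7/Gad2 nuclei the Grm7 share ran from 23.6% to 56.9%, a wider spread than for the other receptors there. Without thinning the shares were 93.996% of oligodendrocytes for Grm3, 59.0% of dopamine nuclei for Grm5 and 92.6% of Slc26a7/Gad2 nuclei for Grm8.

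**Figure D5:**
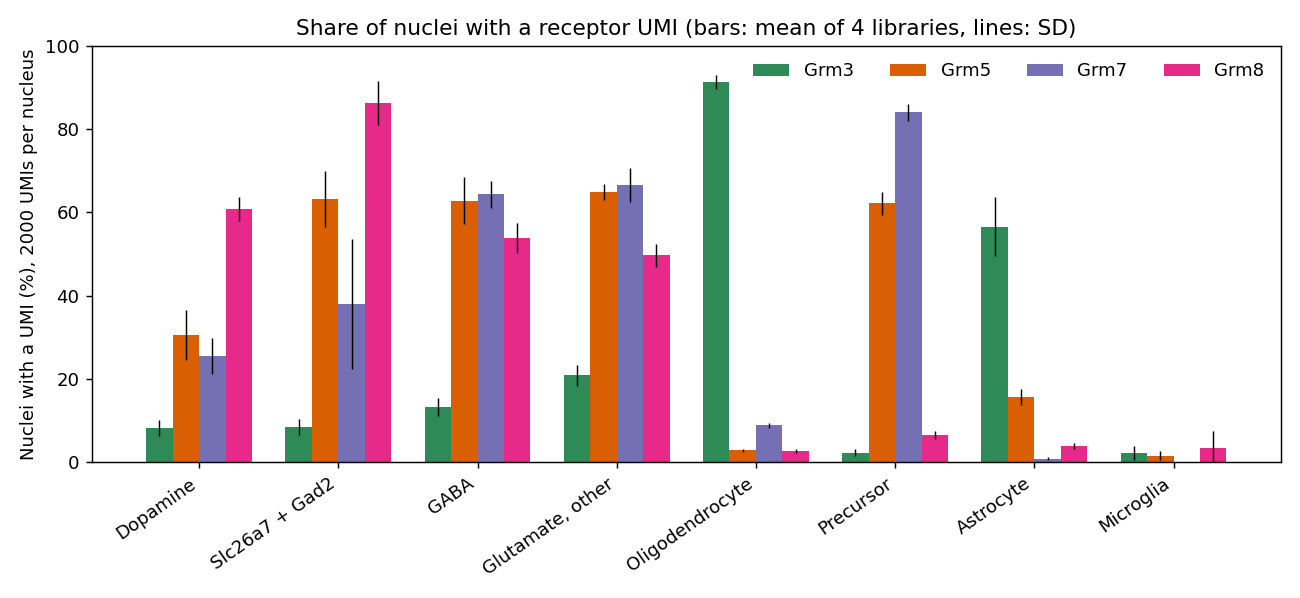
Share of nuclei with at least 1 UMI of Grm3, Grm5, Grm7 or Grm8 after thinning to 2000 UMIs (percent), with bars at the mean of 4 libraries and lines of 1 SD. Grm7 reaches 84.0% of precursors and Grm3 91.3% of oligodendrocytes, against 0% and 2.22% of microglia.

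Receptors were then counted together in the same thinned nuclei. Grm5 and Grm7 occurred together in 54.8% of precursors, where the product of their shares gave 52.2% (a ratio of 1.04 to 1.06 in the 4 libraries). Grm5 and Grm8 occurred together in 54.3% of Slc26a7/Gad2 nuclei against 54.8% by the product. Grm7 and Grm8 occurred together in 38.3% of GABA nuclei against 34.8% (ratios 1.08 to 1.14) and in 29.8% of Slc26a7/Gad2 nuclei against 32.3% (0.812 to 0.971). The ratio of Grm7 with Grm8 was thus below 1 in all 4 libraries in Slc26a7/Gad2 nuclei, of which there are 31 to 46 per library, and above 1 in all 4 in GABA nuclei, as a description without a test. The Slc26a7/Gad2 group pools unlike nuclei. Mean Grm7 and Grm8 were 1297 and 1911.5 CPM in those with Gad1 and 522 and 3346 CPM in those without. The part of this pooling in the ratio was not tested.

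The partners of these receptors were described by a list of 35 genes that covers Gq and Gi coupling, adenylyl cyclases, scaffolds, regulators and enzymes of N-acetylaspartylglutamate, an agonist of Grm3. Between dopamine and GABA nuclei 27 were tested, 11 were higher in dopamine nuclei (15.4% of all genes tested were) and 5 lower (16.9% of all genes). The list's median log2 fold change was 0.07 against -0.02 over all genes. Homer2, a scaffold that ties group I receptors to calcium stores, was higher by 2.07 ± 0.15 and Itpr1, the calcium-release channel of that pathway, by 1.58 ± 0.11. Adcy8 and Adcy2, adenylyl cyclases, were lower (-2.02 ± 0.13 and -1.90 ± 0.17). Dopamine nuclei thus held less Grm5 and Grm7 together with more of these phospholipase C partners and less of these cyclases.

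Against glutamate nuclei, 9 of 27 list genes were higher in dopamine nuclei (13.2% of all genes) and 5 lower (13.0% of all genes), led by Itpr1 (1.79) and Gnai1 (1.39), a Gi subunit, and by Adcy8 (-2.76) and Adcy2 (-2.07). In Slc26a7/Gad2 against dopamine nuclei 4 of 27 were higher (9.40% of all genes) and 10 lower (9.00% of all genes). Adcy8 (2.22 ± 0.16) and Adcy2 (1.40 ± 0.24) were higher there, and Rgs8, a regulator of G protein signalling (-1.34 ± 0.20), and Gnai1 (-1.12 ± 0.14) were lower. Of its 10 tested phospholipase C and postsynaptic genes, 1 was higher and 7 were lower. GABA and glutamate nuclei differed in 6 of 27, 3 in each direction (6.74% and 6.50% of all genes). Nuclei with Sim1 or Foxb1 had 7 of 26 higher (4.68% of all genes) and 5 lower (4.47% of all genes), among them Rgs4 (1.43) and Rgs7 (1.07), regulators of Gi and Go signalling, and Plcb1 (-1.33), a phospholipase C.

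In glia, 15 of 25 list genes were higher in precursors than in oligodendrocytes (34.4% of all genes) and 5 lower (29.2% of all genes). Plcb1 (5.20 ± 0.16) and Elfn1 (4.80 ± 0.34), a synaptic partner of group III receptors, were higher, as Grm5 and Grm7 were, and Gnai1 (-2.20) and Gnao1 (-1.62) were lower. In astrocytes against oligodendrocytes 17 of 25 were higher (34.6% of all genes) and 4 lower (32.0% of all genes), led by Plcb1 (8.32), Adcy8 (6.65) and Gnai1 (-5.57). In astrocytes against precursors 11 were higher (26.8% of all genes) and 6 lower (28.1% of all genes), with Folh1, the enzyme that cleaves N-acetylaspartylglutamate, higher in astrocytes (2.92 ± 0.10). In microglia against oligodendrocytes 8 were higher (25.9% of all genes) and 8 lower (31.3% of all genes), with Homer2 (5.75) and Gnai1 (-8.98) at the ends. In neurons against glia 20 of 27 were higher (37.4% of all genes) and 6 lower (37.9% of all genes), and Folh1 had the most negative value (-6.06). Between Opalin and Hapln2 and Klk6 oligodendrocytes only 4 of 17 differed, Adcy9 (2.05) and Homer1 (0.91) upward (11.2% of all genes) and Gnai1 (-0.79) and Folh1 (-0.63) downward (10.7% of all genes).

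The genes most like each receptor were found by Pearson correlation of log2 CPM over 32 sums (8 groups in 4 libraries, which share libraries and depth). For Grm5 they were Pde8b (0.981), Dner (0.976) and Scn8a (0.973), and for Grm3 Atp8a1 (0.926), Fgfr2 (0.913) and Dock5 (0.912). For Grm7 they were Opcml (0.970), Lrrtm3 (0.952) and AABR07043823.1 (0.952), each with its highest mean in precursors. For Grm8 they were AABR07033882.1 (0.979), Zfp385b (0.966) and Chgb (0.964), and for Grm2 Cacna2d1 (0.857), Cpne9 (0.838) and RGD1561161 (0.828). Among the receptors, Grm5 and Grm7 were the most alike (0.803), and Grm3 and Grm7 were not alike (-0.05).

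Female and male libraries were compared in each group and in all nuclei, and edgeR called 0 receptors in each case. In all nuclei 6 receptors were tested and 0 were called (0.0312% of all genes were). At an unadjusted p under 0.05 there were 0 receptors and 672 of 16037 genes. The calls over all genes were 0.0672% in dopamine nuclei, 0.0604% in Slc26a7/Gad2 nuclei, 0.0944% in GABA nuclei, 0.05% in glutamate nuclei, 0.0515% in oligodendrocytes, 0.0992% in precursors, 0.0981% in astrocytes and 0.0875% in microglia, where 0 receptors passed the filter. DESeq2 also called 0 receptors. For Grm3 in all nuclei the female minus male difference was 0.52 ± 0.22 (log2 fold change ± SE, adjusted p = 0.902), so with 2 libraries per sex differences of this size were not resolved.

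An unadjusted p under 0.05 was reached in 5 receptor and group pairs. Over all genes it was reached by 499 of 12011 in glutamate nuclei and 1083 of 11653 in oligodendrocytes. In precursors it was reached by 809 of 10082 genes and in astrocytes by 389 of 10190. Grm2 in glutamate nuclei (log2 fold change -0.63, edgeR adjusted p = 0.999) and Grm5 in oligodendrocytes (-0.57, adjusted p = 0.520) had lower values in both female libraries than in both male ones. Grm3 in precursors (1.51, edgeR adjusted p = 0.414), Grm7 in astrocytes (-2.15, adjusted p = 0.876) and Grm8 in astrocytes (-1.14) were the others, and in each of these a single nucleus holds a large part of the UMIs of the highest library. Grm7 in astrocytes is 7.66 CPM in male 2 without that nucleus, and Grm8 in astrocytes 19.9 CPM in male 1 without its own. Tests of whether the sex difference varied between groups called 0 receptors among neurons (0.00911% of all genes) and among glia (0.166% of all genes), where Grm7 had the lowest adjusted p, 0.0630.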

How the data were processed

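Each library was deposited as a 10x matrix of whole-number UMI counts per gene and barcode, made by the authors with Cell Ranger on rat build rn6 per the submitters' processing notes, with software version 3.0.2 per the file headers. The treatment of intron reads in counting is not stated in the sources at hand.

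Barcodes with under 200 genes or over 5% mitochondrial UMIs (6) and Scrublet's highest doublet scores, 0.8% per 1000 barcodes (980, scanpy 1.11.5), were removed from 21606. Nuclei passing several neuron rules went to the first of dopamine, Slc26a7/Gad2, GABA and glutamate, while those passing rules of different classes (258) or with only Sim1 or only Foxb1 (289) were left out of the groups. For the Sim1 or Foxb1 contrast, the latter 289 were added to the 30 with both. Counts were summed per group and library and tested with edgeR 4.0.16 in R 4.3.3 (TMM, filterByExpr, quasi-likelihood, library as a block, adjusted p under 0.05). The SE is the size of the log2 fold change divided by the square root of F. Shares used nuclei thinned to 2000 UMIs. Limits for a count of 0 take 3 counts.

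Alternatives were DESeq2 1.42.0, its size factors in edgeR, no filter on low counts, doublet calls ignored, tighter quality limits (500 genes, 1% mitochondrial UMIs), nuclei counted in every group passed, gating genes at 1 UMI more, no library block, each library left out, Sim1 and Foxb1 read as a sum, thinning to 1000 UMIs or none, and, between the sexes, the replicate number as a block. The Opalin contrast with its alternatives and the levels without the richest nucleus were added after seeing the data. The script for the tests was tested on simulated data. The receptors, marker and partner lists and subsets of groups were chosen with earlier results of these data known. Named genes are the 7 receptors, for each the 3 genes most like it, and list members with the largest changes in each contrast. Of 4 precursor markers 3 were found.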

Additional observations from a re-analysis of the deposited data

Results flagged for a closer look

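In 3 of 34 sets of 4 library values, 1 library lay far from the others, where chance gives about 1 in 20 such sets. Grm8 in glutamate nuclei without Sim1 and Foxb1 was lowest in male 1, at 868 CPM, against 986 to 1002 CPM in the other libraries. Grm5 in astrocytes was highest in male 2, at 189 CPM, against 134 to 142 CPM. Grm8 in astrocytes was highest in male 1, at 102 CPM, against 18.3 to 27.8 CPM, and 72 of its 89 UMIs there lay in a single nucleus.

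Receptor UMIs were also present in the 4563 nuclei that passed no rule, which no comparison used. They numbered 589 for Grm2, 12105 for Grm3, 9953 for Grm5, 23 for Grm6, 18647 for Grm7 and 15519 for Grm8. These are 30.7% to 54.2% of each library's Grm2 UMIs, 4.68% to 12.5% of its Grm3 UMIs, 23.6% to 34.8% of its Grm5 UMIs, 26.2% to 39.3% of its Grm7 UMIs and 27.5% to 38.3% of its Grm8 UMIs.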

How the results depend on the processing

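Of 38 called differences of a receptor between groups of nuclei, 31 kept their direction and their call in every alternative run. The 7 others were Grm7 in Slc26a7/Gad2 against dopamine nuclei, Grm7 and Grm8 for Sim1 or Foxb1, Grm8 in precursors against oligodendrocytes, in astrocytes against precursors and in Opalin oligodendrocytes, and Grm5 in microglia against oligodendrocytes (-0.37 and not called with nuclei counted in every group passed). The called sign turned for Grm7 in Slc26a7/Gad2 against dopamine nuclei with gating genes at 1 UMI more (-0.85) and for Grm8 in Opalin oligodendrocytes without female 2 (-0.25, with 1.80 the highest value without a library); the cause was not tested. The other turns of sign were in differences not called in the main analysis. With nuclei counted in every group passed these were Grm8 in dopamine against glutamate nuclei (-0.22, called), Grm5, Grm8 and Grm7 in GABA against glutamate nuclei (0.020, -0.13 and 0.054), Grm3 in Slc26a7/Gad2 against dopamine nuclei (-0.0011), Grm8 in astrocytes against oligodendrocytes (-0.84) and Grm3 between the sexes in precursors (-0.027). With gating genes at 1 UMI more they were Grm2 in dopamine against GABA nuclei (-0.30), Grm8 in dopamine against glutamate nuclei (-0.23), Grm3 and Grm2 in Slc26a7/Gad2 against dopamine nuclei (-0.95 and -0.085) and Grm8 in astrocytes against oligodendrocytes (-0.48). Over the analyses that left out 1 library each, Grm8 and Grm2 in dopamine against GABA nuclei ranged from -0.11 to 0.041 and from -0.42 to 0.80, Grm8 in dopamine against glutamate nuclei from -0.047 to 0.056, and Grm5 and Grm7 in GABA against glutamate nuclei from -0.15 to 0.072 and from -0.14 to 0.058. Grm2 in Slc26a7/Gad2 against dopamine nuclei ranged from -0.012 to 0.95 (lowest without male 1) and Grm8 in astrocytes against oligodendrocytes from -0.48 (without male 1) to 0.99. Between the sexes in astrocytes Grm8 ranged from -2.08 to 0.21 (highest without male 1) and Grm7 from -3.68 to 0.36 (highest without male 2). Grm8 in dopamine against glutamate nuclei was -0.0061 with no filter, and Grm5 in GABA against glutamate nuclei 0.011 with no library block and 0.0036 with Sim1 and Foxb1 read as a sum.

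Receptors called in GABA against glutamate nuclei were 2 with no filter and 1 to 2 without a library, and in glutamate nuclei with against without Sim1 or Foxb1 2 to 4 without a library. Between the sexes, 0 to 1 were called in glutamate nuclei, oligodendrocytes and precursors and 0 to 2 in astrocytes without a library, and 2 in precursors and 2 in astrocytes with no filter. Female and male replicates share only a number (r = 0.29 between the differences of replicate 1 and 2 over 16037 genes, with 2 pairs). With the replicate number as a block, 1 receptor was called in precursors (Grm3, 1.37) and 2 in astrocytes (Grm8, -1.15, and Grm7, -1.96), and 0 elsewhere. All genes called between the sexes moved from 5 to at most 55 in all nuclei, from 6 to 20 in dopamine, 4 to 18 in Slc26a7/Gad2, 11 to 293 in GABA and 6 to 122 in glutamate nuclei, 6 to 952 in oligodendrocytes, 10 to 250 in precursors, 10 to 100 in astrocytes and 5 to 66 in microglia, the highest values coming without a library, with no filter (dopamine) or with the replicate block (precursors and astrocytes). Genes called went from 1454 to 951 in GABA against glutamate nuclei with no library block, and for Sim1 or Foxb1 from 956 to 631 with no library block, 521 without female 1 and 582 without male 1. When a sex was left with 1 library, that library was assumed to vary like the others. Depth limits Grm2 and Grm6 in most groups and every receptor in microglia.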
